A study of Mus musculus with 16 samples.

Results

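The genes described here are 7 members of the Slc22a family of organic ion transporters in mouse liver: Slc22a5, Slc22a7, Slc22a26, Slc22a27, Slc22a28, Slc22a29 and Slc22a30. They are 7 of the 78317 genes in the deposited tables, found there by symbol, and each had a row and passed the filter on low counts. The list had been chosen from the measured values of these same libraries, and it does not say which comparison was used. Every diet and sex comparison below is therefore treated as part of the choice: the values, fold changes and calls of the 7 genes are descriptions, no p-value is given for any of them, and nothing is read from how many were called.

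RNA was sequenced from the livers of wild-type C57BL/6J mice, an inbred laboratory strain, in 16 libraries. Females and males were studied on 2 diets, with 4 libraries in each of the 4 groups. The mice were 6 weeks old on arrival and then ate for 10 weeks either normal chow, in which fat supplied 4.5% of calories, or a high fat diet, in which fat supplied 60% of calories. The diets came from different makers, so a difference between them need not be one of fat alone. The labels number the replicates and do not say that each number is a separate animal, so p-values measure the spread between these libraries, part of which may be technical.

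Slc22 proteins sit in the cell membrane and move small charged molecules into or out of cells. Slc22a5, also known as OCTN2, takes up carnitine, which carries long-chain fatty acids into mitochondria for oxidation. Slc22a7, also known as OAT2, is an organic anion transporter of the liver and kidney. Slc22a26, Slc22a27, Slc22a28, Slc22a29 and Slc22a30 are rodent relatives of the organic anion transporters, and their substrates are less well described. Many genes of the mouse liver, transporters and cytochrome P450 enzymes among them, are known to differ between the sexes under the control of the pattern of growth hormone release.

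The total expected count per library ranged from 22228115 to 41420589. Male high fat replicates 2 and 3 were closer to each other than any other pair of libraries within a group: their chi-square statistic per gene was 4.07, against 20.8 for the next closest pair of the series and 307.9 for the most distant pair of their own group. The labels do not say what these 2 libraries share, and results in males are given with and without them. The liver label was checked against marker genes. The summed level of 7 hepatocyte markers was between 64624 and 125608 CPM in every library (counts relative to the scaled library size), and none of 9 kidney tubule markers passed the filter, with a sum of at most 0.611 CPM. Among the kidney markers, Slc34a1, Slc12a1, Aqp2, Kap and Slc5a2 were at 0 in all 16 libraries. The hepatocyte sum was itself lower in high fat males (64624 to 79818 CPM) than in normal diet males (88207 to 102741 CPM), and in females it was 87155 to 106889 CPM against 110152 to 125608 CPM. On each diet it was also higher in every female library than in every male library. The sum of 5 adipocyte markers was 16 to 37.4 CPM in high fat males and 9.60 to 15.2 CPM in normal diet males. Most of that sum was Cidec and Fabp4, which reached 26.9 and 14.0 CPM. Adipoq, Plin1 and Lep reached at most 1.46, 0.596 and 0.241 CPM in any library, so the sum does not measure adipocyte content. The sum of 5 pancreatic acinar markers was 12.3 to 30.7 CPM in high fat males and 4.79 to 14.5 CPM in normal diet males. Of these markers, Pnlip and Amy2a5 were at 0 in 13 and 12 of the 16 libraries and reached 8.18 and 12.4 CPM. By the ratio of count to CPM, the Pnlip peak was in male high fat replicate 2 and the Amy2a5 peak in replicate 3. The part of acinar RNA in what these 2 libraries share was not tested. The sum of 5 Kupffer cell markers was 354.0 to 519 CPM in females on the high fat diet and 214 to 313 CPM in females on the normal diet. On the normal diet, 3 further marker sums of 5 genes each were higher in every female library than in every male library: stellate cells at 189 to 208 CPM against 121 to 146 CPM, endothelial cells at 109 to 118 CPM against 86.1 to 99.5 CPM, and T and B cells at 1.85 to 3.19 CPM against 0.406 to 1.61 CPM. On the high fat diet the T and B cell sums were again separate, at 2.51 to 4.63 CPM against 1.11 to 1.82 CPM, and the stellate and endothelial sums overlapped between the sexes. The part of these differences in the results below was not tested. In whole tissue, fewer cells of a type and less RNA per cell cannot be told apart.

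In the annotation, Slc22a26, Slc22a27, Slc22a28, Slc22a29 and Slc22a30 are 5 consecutive protein-coding genes on chromosome 19, in that order, with 5 pseudogenes among them. Slc22a5 is on chromosome 11 and Slc22a7 is on chromosome 17. Slc22a27, Slc22a28, Slc22a29 and Slc22a30 are close copies of one another, and Slc22a26 is less like them. The longest coding transcripts of Slc22a28 and Slc22a30 matched at 1469 of 1485 aligned bases (98.9%), and those of Slc22a27 and Slc22a29 matched at 2022 of 2088 (96.8%), whereas Slc22a26 matched Slc22a27 at 1324 of 1775 (74.6%). Of all stretches of 50 bases in the Slc22a28 transcript, 53.3% were also found in Slc22a30, and 24.4% of those in Slc22a29 were also found in Slc22a27. Reads from such stretches were divided between genes by a likelihood model, so the split between Slc22a28 and Slc22a30, and between Slc22a27 and Slc22a29, is uncertain. Slc22a26 shared no such stretch with the other 4 clustered genes, and Slc22a7 shared none with any gene. Slc22a5 shared 26.9% of its stretches with Slc22a21.

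Upstream of the genes, some pairs were alike and others were not. Slc22a28 and Slc22a30 are a close pair in sequence but not in level. On the normal diet they averaged 20.9 and 244 CPM in males and 1.55 and 173 CPM in females. The 250 bases before the start of 4 clustered genes are shown because they let this pair be compared with Slc22a29 and with Slc22a26. They are RefSeq sequences of build GRCm38.p6, all from the minus strand: Slc22a28 at chr19:8131983-8132232, Slc22a30 at chr19:8405106-8405355, Slc22a29 at chr19:8218901-8219150 and Slc22a26 at chr19:7802668-7802917. Each is written 5′ to 3′, and capitals mark matches to the motifs named after them.
Slc22a28: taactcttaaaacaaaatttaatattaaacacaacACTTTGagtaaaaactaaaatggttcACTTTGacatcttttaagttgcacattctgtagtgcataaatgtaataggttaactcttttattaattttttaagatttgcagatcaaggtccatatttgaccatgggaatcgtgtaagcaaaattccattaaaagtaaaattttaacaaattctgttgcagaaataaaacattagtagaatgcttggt
Slc22a30: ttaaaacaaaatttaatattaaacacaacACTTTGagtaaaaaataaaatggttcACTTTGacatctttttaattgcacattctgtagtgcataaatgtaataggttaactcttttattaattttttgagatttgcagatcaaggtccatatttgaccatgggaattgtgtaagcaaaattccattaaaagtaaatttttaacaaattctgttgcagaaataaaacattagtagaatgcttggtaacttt
Slc22a29: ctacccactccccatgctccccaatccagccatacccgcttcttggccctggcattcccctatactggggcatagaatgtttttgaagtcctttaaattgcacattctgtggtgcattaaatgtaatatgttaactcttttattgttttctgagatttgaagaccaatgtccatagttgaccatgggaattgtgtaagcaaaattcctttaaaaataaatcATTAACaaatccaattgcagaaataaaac
Slc22a26: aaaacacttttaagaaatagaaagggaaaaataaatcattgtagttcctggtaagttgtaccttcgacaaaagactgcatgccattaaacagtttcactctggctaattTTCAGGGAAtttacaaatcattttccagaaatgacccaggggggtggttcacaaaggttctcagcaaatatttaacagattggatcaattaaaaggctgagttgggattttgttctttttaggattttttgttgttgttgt

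In the local alignment of the Slc22a28 and Slc22a30 sequences, 238 of 244 columns were identical and 6 were substitutions. Slc22a29 matched Slc22a28 at 146 of 170 aligned columns and Slc22a30 at 158 of 184. Slc22a26 aligned with Slc22a28 over only 27 columns. The transcripts of Slc22a27 and Slc22a29 are a close pair, but their upstream sequences aligned over only 12 columns, and Slc22a27 aligned with the other 3 over 8 to 15. A short site of HNF4, a liver transcription factor, was searched as CAAAGT on both strands. It was found on the strand opposite the gene at 215 and 189 bases before the start of Slc22a28, and at 221 and 195 bases before the start of Slc22a30. The same letters were found in 12.6% of all 32851 upstream windows of this length. The STAT motif TTCNNNGAA, bound by factors that growth hormone activates, was found once, 141 bases before Slc22a26, and in 7.02% of all windows. An HNF1 short site, GTTAAT, was found on the opposite strand 29 bases before Slc22a29 and in 6.43% of all windows. A nuclear receptor short site, AGGTCA, was found on the opposite strand 119 bases before Slc22a27 and in 14.0% of all windows. No match of one motif overlapped a match of another, and a match describes letters and not binding.

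Slc22a26 was the most abundant of the 7 transporters in females and was nearly absent in males. On the normal diet its level in females was 329, 353, 275 and 258 CPM in replicates 1 to 4, and in males it was 0.659, 0.656, 0.13 and 1.35 CPM. On the high fat diet it was 118, 287, 309 and 156 CPM in females and 0.334, 2.85, 4.19 and 0.974 CPM in males. The lowest female library was far above the highest male library on both diets, whereas the diet groups overlapped within each sex. The log2 fold change of females over males was 8.67 ± 0.73 (SE, 4 libraries a group throughout) on the normal diet, a 407-fold difference, and 6.67 ± 0.65 on the high fat diet. Without male high fat replicates 2 and 3 the difference on the high fat diet was 8.41, near that on the normal diet. The diet change was -0.48 ± 0.49 in females and 1.51 ± 0.68 in males. Neither diet change was called, a call being an adjusted p under 0.05 by edgeR's quasi-likelihood test over all 14781 tested genes. Without male high fat replicates 2 and 3, the change in males was -0.23.

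Slc22a27 and Slc22a29 were also higher in females, at lower levels. Slc22a27 was at 47.9, 52.2, 44.4 and 36.5 CPM in females on the normal diet and at 46.6, 75.1, 76.8 and 84.9 CPM on the high fat diet. In males it was at 0.329, 0.342, 0.259 and 0.433 CPM on the normal diet and at 0.743, 7.40, 7.57 and 1.15 CPM on the high fat diet. In females 1 high fat library fell within the normal diet range, and in males the diets did not overlap, although high fat replicates 2 and 3 stood well above replicates 1 and 4. The log2 fold change of high fat over normal diet was 0.65 ± 0.47 in females, not called unless only the 2 female groups were fitted or male high fat replicates 2 and 3 were left out (0.65 in both), and 3.60 ± 0.73 in males, called. Without male high fat replicates 2 and 3 the change in males was 1.41 and was still called. Females exceeded males by 7.00 ± 0.71 on the log2 scale on the normal diet and by 4.05 ± 0.55 on the high fat diet, and both were called. Without the 2 male libraries the difference on the high fat diet was 6.24.

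Slc22a29 was at 2.41, 2.46, 2.20 and 1.67 CPM in females on the normal diet and at 6.21, 8.44, 6.55 and 12.1 CPM on the high fat diet. In males it was at 0.124, 0.228, 0.0432 and 0.0812 CPM on the normal diet and at 0.260, 4.21, 4.35 and 0.354 CPM on the high fat diet. Every high fat library was above every normal diet library of its sex, and male high fat replicates 2 and 3 again stood apart from replicates 1 and 4. The male normal diet levels rest on 15 expected counts in 4 libraries. With diet, the log2 fold change was 1.93 ± 0.62 in females, not called, and 4.18 ± 0.88 in males, called. The change in females was called when only the 2 female groups were fitted (1.93), without male high fat replicates 2 and 3 (1.93), and on the log2(TPM + 1) and log2(TPM + 0.1) scales (1.53 and 2.05). Without male high fat replicates 2 and 3 the change in males was 1.26 and was not called, and on the log2(TPM + 1) scale it was 0.93 and was not called. The log2 difference of females over males was 4.08 ± 0.88 on the normal diet and 1.83 ± 0.62 on the high fat diet, both called. The call on the high fat diet was lost without any 1 of the 4 female high fat libraries or of male high fat replicates 1 and 4, at values between 1.48 and 1.95, with no filter on low counts (1.84) and when only the 2 groups were fitted (1.86). With both male high fat replicates 2 and 3 left out the difference was 4.75.

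**Figure D1:**
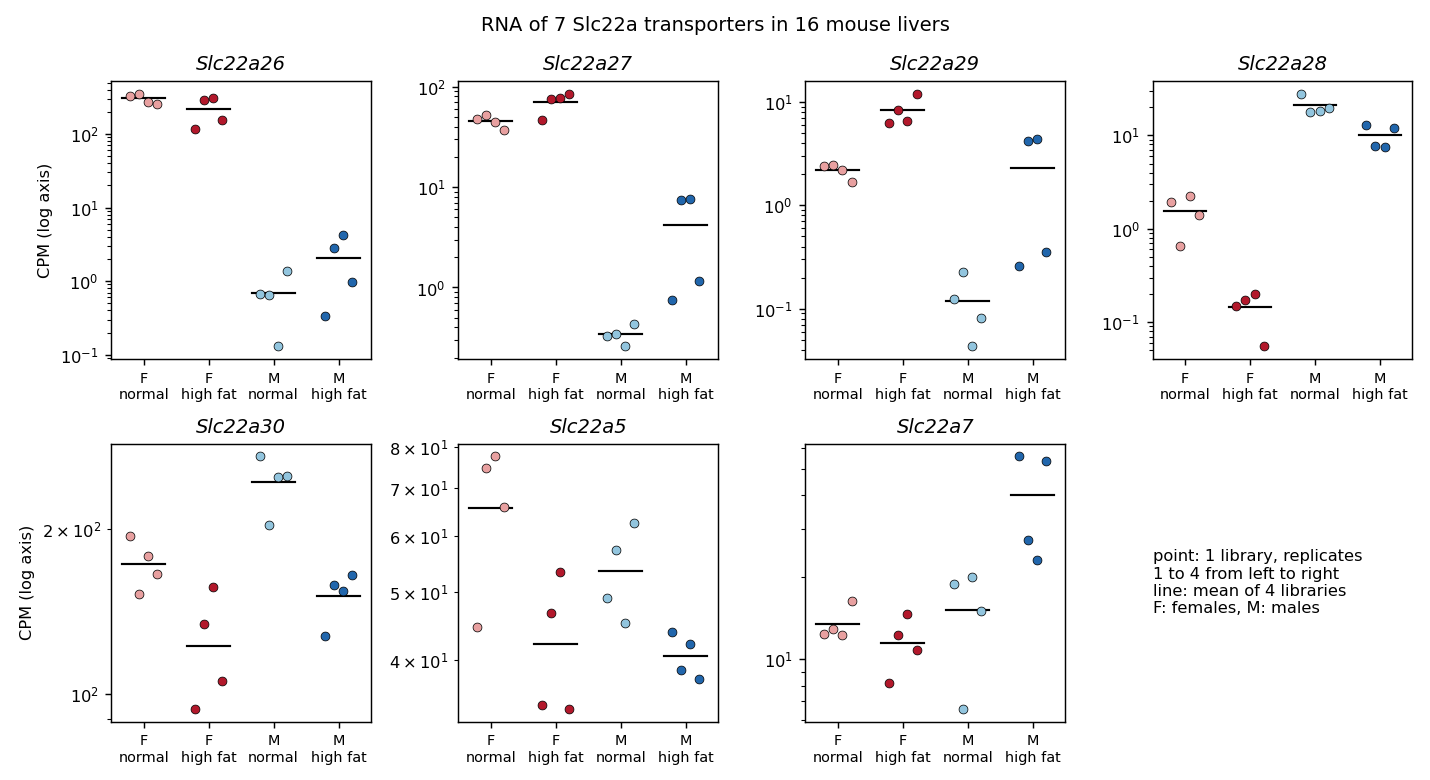
CPM of each of the 7 transporters (log axis, a separate scale for each gene) in the 16 libraries, with points for libraries and lines for the mean of 4. Slc22a26, Slc22a27 and Slc22a29 were higher in females and Slc22a28 in males, and male high fat replicates 2 and 3 lie above replicates 1 and 4 for Slc22a27 and Slc22a29.

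Slc22a28 had the opposite pattern: it was higher in males and lower on the high fat diet in both sexes. In males it was at 28, 17.9, 18.3 and 19.5 CPM on the normal diet and at 12.9, 7.77, 7.43 and 12.0 CPM on the high fat diet. In females it was at 1.94, 0.647, 2.23 and 1.39 CPM on the normal diet and at 0.148, 0.175, 0.202 and 0.0549 CPM on the high fat diet. The diets did not overlap in either sex, and no female library reached the lowest male library on the same diet. The 4 female high fat libraries together held 17.0 expected counts, between 1.40 and 5.40 each, and none of the 16 values of this gene was a whole number. The log2 fold change with diet was -3.43 ± 0.46 in females, a 10.8-fold lower level, and -1.07 ± 0.26 in males, a 2.09-fold lower level, and both were called. The change in males was not called without male normal replicate 1 (-0.90), without male high fat replicates 2 and 3 (-0.75) or on the log2(TPM + 0.1) scale (-0.99). The log2 difference of females from males was -3.77 ± 0.30 on the normal diet and -6.13 ± 0.41 on the high fat diet, or -6.45 without those 2 libraries, and all 3 were called.

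Slc22a30, the near copy of Slc22a28, was abundant in both sexes. It was at 194, 152, 179 and 165 CPM in females on the normal diet and at 93.7, 134, 157 and 105 CPM on the high fat diet. In males it was at 272, 203, 249 and 250.2 CPM on the normal diet and at 128, 158, 154 and 165 CPM on the high fat diet. The diets did not overlap in males, and in females 1 high fat library lay within the normal diet range. The fitted diet change (log2) was -0.50 ± 0.15 in females and -0.69 ± 0.15 in males, both called, and the male value was -0.74 and called without male high fat replicates 2 and 3. The female call was lost when any 1 of female normal replicates 1, 3 and 4 or female high fat replicates 1 and 4 was left out, at values from -0.50 to -0.39, when only the 2 female groups were fitted (-0.49) and on the log2(TPM + 1) scale (-0.28). The log2 difference of females from males was -0.50 ± 0.15 on the normal diet, called, and -0.30 ± 0.15 on the high fat diet, not called. The call on the normal diet was lost when any 1 of female normal replicates 2 and 4 or male normal replicates 1, 3 and 4 was left out, at values from -0.49 to -0.43, and the difference on the high fat diet was called without female high fat replicate 3 (-0.43).

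Because reads can pass between close copies, the 5 clustered genes were also summed. The sum also holds Slc22a26, which shared no stretch with the other clustered genes, so it is wider than the close copies. Sums of Slc22a28 with Slc22a30 and of Slc22a27 with Slc22a29 were not tested. The sum was 575, 560.3, 502 and 463 CPM in females on the normal diet and 265, 504, 549 and 359 CPM on the high fat diet. In males it was 301, 222, 268 and 272 CPM on the normal diet and 142, 180.2, 178 and 179 CPM on the high fat diet. The male diet groups were separate, and the female groups overlapped. The sum fell by 0.65 ± 0.18 on the log2 scale in males, a called change, and its change in females was -0.31 ± 0.18, not called. The male call was lost without male normal replicate 1 (-0.59), male normal replicate 3 (-0.64) or male high fat replicate 1 (-0.58), and without male high fat replicates 2 and 3 (-0.73). Females exceeded males by 0.99 ± 0.18 on the normal diet and 1.33 ± 0.18 on the high fat diet, both called. On the normal diet Slc22a26 averaged 304 CPM in females and 0.70 CPM in males, and the sum averaged 525 and 266 CPM. On the high fat diet the means were 218 and 2.09 CPM for Slc22a26 and 419 and 170 CPM for the sum. The excess of the sum in females therefore cannot by itself be read as an excess or a lack of the close copies. A sum without Slc22a26 was not tested.

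Per transcript length, in TPM (counts divided by transcript length and scaled to 1 fixed total), the cluster had a different leading gene in each sex. Slc22a26 made up 54.7% ± 3.40 (SD, n = 4) of the cluster's TPM in females on the normal diet and 47.0% ± 7.64 on the high fat diet. Slc22a30 made up 90.6% ± 1.24 in males on the normal diet and 88.0% ± 2.26 on the high fat diet, against 34.5% ± 3.99 and 30.7% ± 4.01 in females. The share of Slc22a27 in females was 10.0% ± 0.856 on the normal diet and 20.1% ± 4.70 on the high fat diet. The share of Slc22a28 in males was 9.0% ± 1.23 on the normal diet and 6.97% ± 2.63 on the high fat diet, and in females it was below 1% in every library.

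**Figure D2:**
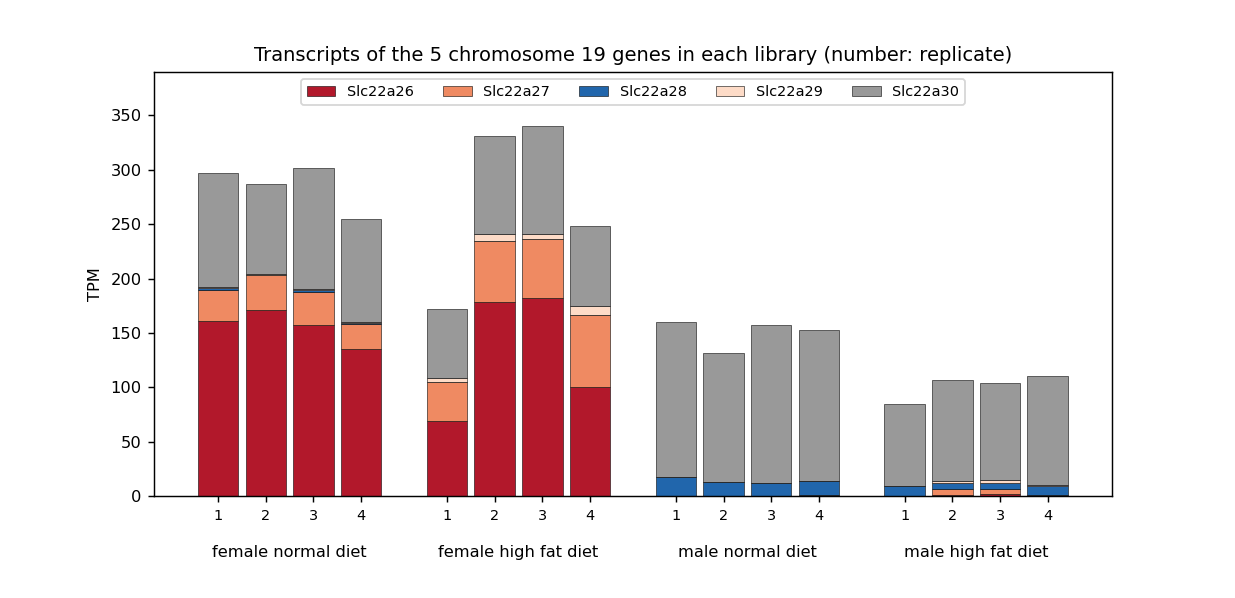
TPM of the 5 chromosome 19 genes stacked in each of the 16 libraries, with replicate numbers under the bars. Slc22a26 and Slc22a30 fill most of each female bar and Slc22a30 most of each male bar.

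Slc22a5, the carnitine transporter, was at 44.5, 74.8, 77.6 and 65.9 CPM in females on the normal diet and at 34.5, 46.6, 53.2 and 34.1 CPM on the high fat diet. In males it was at 48.9, 57.2, 45.1 and 62.6 CPM on the normal diet and at 43.8, 38.8, 42.1 and 37.6 CPM on the high fat diet. The female groups overlapped through normal replicate 1, and the male groups were separate. The log2 fold change with diet was -0.64 ± 0.17 in females, called, and -0.40 ± 0.17 in males, not called (-0.40 without male high fat replicates 2 and 3). The male change was called when only the 2 male groups were fitted (-0.39). The female call was lost when any 1 of female normal replicates 2, 3 and 4 or female high fat replicates 1 and 4 was left out, at values from -0.63 to -0.55, when only the 2 female groups were fitted (-0.64) and on the log2(TPM + 1) scale (-0.37). The sexes differed by 0.30 ± 0.17 on the normal diet and 0.05 ± 0.17 on the high fat diet (log2, females minus males), neither called.

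Slc22a7, the organic anion transporter OAT2, differed with diet in males. Its male levels were 18.9, 6.56, 20.1 and 15.1 CPM on the normal diet and 55.7, 27.5, 23.2 and 53.7 CPM on the high fat diet. In females it was at 12.3, 12.9, 12.3 and 16.4 CPM on the normal diet and at 8.16, 12.3, 14.7 and 10.8 CPM on the high fat diet. The male high fat libraries were all above the male normal diet libraries, with replicates 1 and 4 the highest, and the female groups overlapped. On the log2 scale the diet change was 1.41 ± 0.34 in males, called, and -0.23 ± 0.34 in females, not called. Without male high fat replicates 2 and 3 the male change was 1.86 and was called, and it was not called when only the 2 male groups were fitted (1.41) or with no filter on low counts (1.40). The log2 difference of females from males was -0.16 ± 0.34 on the normal diet, not called, and -1.80 ± 0.34 on the high fat diet, called (-2.25 without the 2 male libraries).

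Ranked by mean TPM, the order of the 7 genes differed between groups. In females on the normal diet it was Slc22a26 at 156 ± 15.2 TPM (SD, n = 4), Slc22a30 at 98.1 ± 12.7, Slc22a27 at 28.7 ± 3.81, Slc22a5 at 26.8 ± 7.14, Slc22a7 at 8.95 ± 1.44, Slc22a29 at 1.24 ± 0.185 and Slc22a28 at 1.03 ± 0.505. The libraries overlapped between Slc22a27 and Slc22a5 and between Slc22a29 and Slc22a28, so those neighbours have no set order. In females on the high fat diet the order was the same, with Slc22a26 at 132 ± 56.4 TPM, Slc22a30 at 81.5 ± 16.5, Slc22a27 at 53.1 ± 12.7, Slc22a5 at 20.1 ± 3.91, Slc22a7 at 8.99 ± 1.96, Slc22a29 at 5.64 ± 2.02 and Slc22a28 at 0.11 ± 0.0497. There the range of Slc22a30 overlapped those of Slc22a26 and Slc22a27, and that of Slc22a7 overlapped that of Slc22a29. Within every single library, however, the order of these neighbours was kept. In males on the normal diet Slc22a30 led at 137 ± 11.8 TPM, followed by Slc22a5 at 21.5 ± 3.40, Slc22a28 at 13.6 ± 2.34, Slc22a7 at 9.94 ± 3.94, Slc22a26 at 0.358 ± 0.270, Slc22a27 at 0.235 ± 0.0569 and Slc22a29 at 0.07 ± 0.0432. Slc22a28 overlapped Slc22a7 there, and Slc22a26 overlapped Slc22a27. In males on the high fat diet Slc22a30 was at 89.5 ± 10.4 TPM, Slc22a7 at 28 ± 12.3, Slc22a5 at 17.2 ± 1.06, Slc22a28 at 6.92 ± 2.03, Slc22a27 at 2.77 ± 2.47, Slc22a29 at 1.35 ± 1.35 and Slc22a26 at 1.17 ± 0.956. Slc22a7 overlapped Slc22a5, and Slc22a29 overlapped both of its neighbours, although Slc22a27 was above Slc22a29 within every library.

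Counted together, 3 of the 7 transporters were called with diet in females, 0 higher and 3 lower (Slc22a28, Slc22a5 and Slc22a30), where 11.5% of all tested genes were called, 5.74% higher and 5.76% lower. In males 5 were called with diet, where 11.4% of all tested genes were called: 3 were higher (Slc22a7, Slc22a27 and Slc22a29; 6.03% of all genes) and 2 were lower (Slc22a28 and Slc22a30; 5.36%). The median log2 change of the 7 was -0.48 in females and 1.41 in males, against 0.00 and 0.01 over all genes. These counts were fixed in part by the choice of the genes. Without male high fat replicates 2 and 3, the counts were 5 in females (2 higher and 3 lower), where 11% of all genes were called, and 3 in males (2 higher and 1 lower), where the share of all genes was 7.61%. Only Slc22a28 was called in females without any 1 of female normal replicates 3 and 4 or female high fat replicates 1 and 4.

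**Figure D3:**
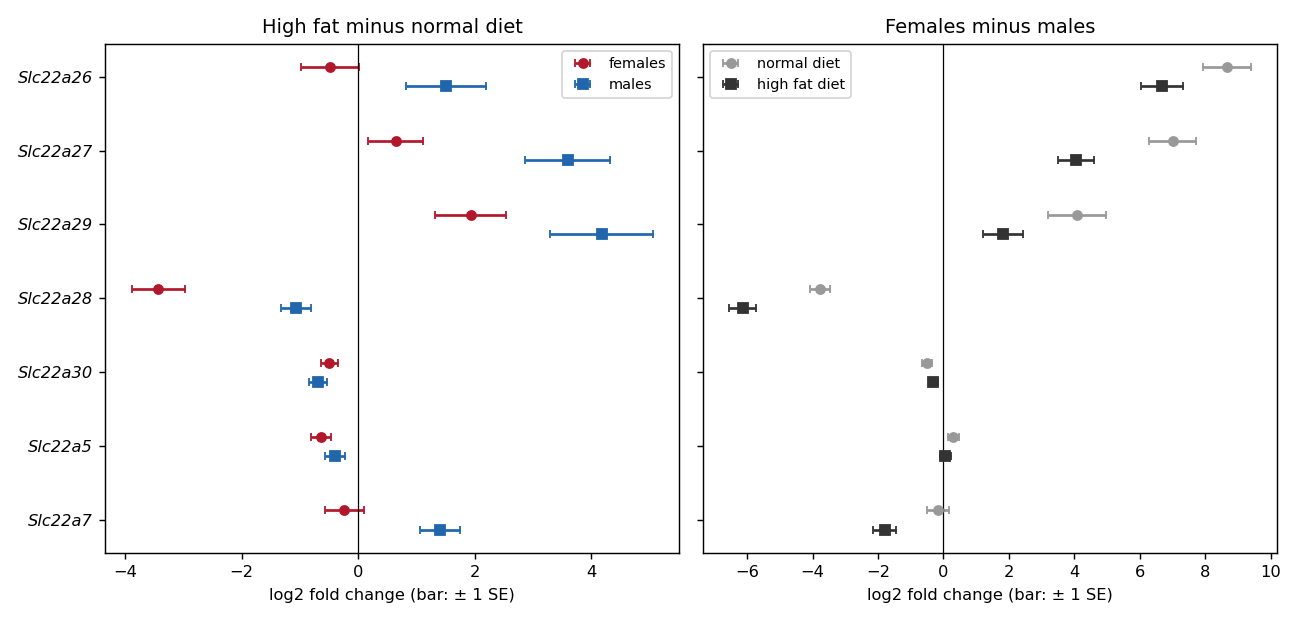
Log2 fold change of each transporter with diet in both sexes (left) and between the sexes on both diets (right), with bars of 1 SE. Slc22a28 lies at -3.43 in females and -1.07 in males on the left, and the sexes lie farthest apart for Slc22a26 on the normal diet, at 8.67 on the right.

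The diet changes of the sexes were also compared with each other, as the change in females minus that in males. The log2 difference was -1.64 ± 0.48 for Slc22a7, -1.99 ± 0.84 for Slc22a26, -2.95 ± 0.89 for Slc22a27, -2.36 ± 0.55 for Slc22a28, -2.25 ± 1.11 for Slc22a29, -0.24 ± 0.24 for Slc22a5 and 0.19 ± 0.21 for Slc22a30. None of the 7 was called by edgeR's quasi-likelihood test, and 4 had an unadjusted p under 0.05, as 13.0% of all tested genes did. The DESeq2 Wald test called 3 (Slc22a7, Slc22a27 and Slc22a28) and 2.28% of all genes. The edgeR test called 0.677% of all genes, 0.264% higher and 0.413% lower, and the median of the 7 was -1.99 against -0.01 over all genes. On the log2(TPM + 1) scale the difference turned to 0.066 for Slc22a28 and 0.59 for Slc22a29. On the log2(TPM + 0.1) scale both kept their sign, at -1.34 and -0.32. Without male high fat replicates 2 and 3, edgeR called Slc22a7 (-2.09) and Slc22a28 (-2.67) and 0.844% of all genes, whereas Slc22a26 was at -0.25, Slc22a27 at -0.76 and Slc22a29 at 0.67. Slc22a27 was called without male high fat replicate 1 (-3.28), and Slc22a28 without female normal replicate 2 (-2.60) or male normal replicate 1 (-2.51).

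Between the sexes, 5 of the 7 were called on the normal diet, where 15.7% of all genes were called: 3 were higher in females (Slc22a26, Slc22a27 and Slc22a29; 7.03% of all genes) and 2 were lower (Slc22a28 and Slc22a30; 8.68%). On the high fat diet 5 were called where 20.4% of all genes were: Slc22a26, Slc22a27 and Slc22a29 were the 3 higher in females (8.84% of all genes), and Slc22a28 and Slc22a7 were the 2 lower (11.6%). The median log2 difference of the 7 was 0.30 on the normal diet and 0.05 on the high fat diet, against -0.00 and -0.01 over all genes. The sex comparisons and the diet comparisons share libraries, so the same library values enter both.

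The single libraries on the high fat diet were set against the mean of the normal diet group of their sex. In male replicates 2 and 3, Slc22a27 was 21.7 and 22.2 times that mean, Slc22a29 was 35.4 and 36.6 times and Slc22a26 was 4.08 and 5.99 times. In male replicates 1 and 4 the same ratios were 2.18 and 3.38 for Slc22a27, 2.18 and 2.97 for Slc22a29, and 0.478 and 1.39 for Slc22a26. Slc22a28 was lower in the first pair, at 0.371 and 0.355, than in the second, at 0.615 and 0.572, and Slc22a7 was at 1.81 and 1.53 in the first pair and at 3.67 and 3.54 in the second. Slc22a30 and Slc22a5 were closer together, from 0.524 to 0.675 and from 0.703 to 0.820 over the 4 male libraries. In female high fat libraries, replicates 1 and 4 had the lower ratios for Slc22a26, at 0.390 and 0.515, against 0.944 and 1.02 in replicates 2 and 3. The same 2 female libraries had the lower ratios of Slc22a30, at 0.543 and 0.610, and of Slc22a5, at 0.526 and 0.519.

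**Figure D4:**
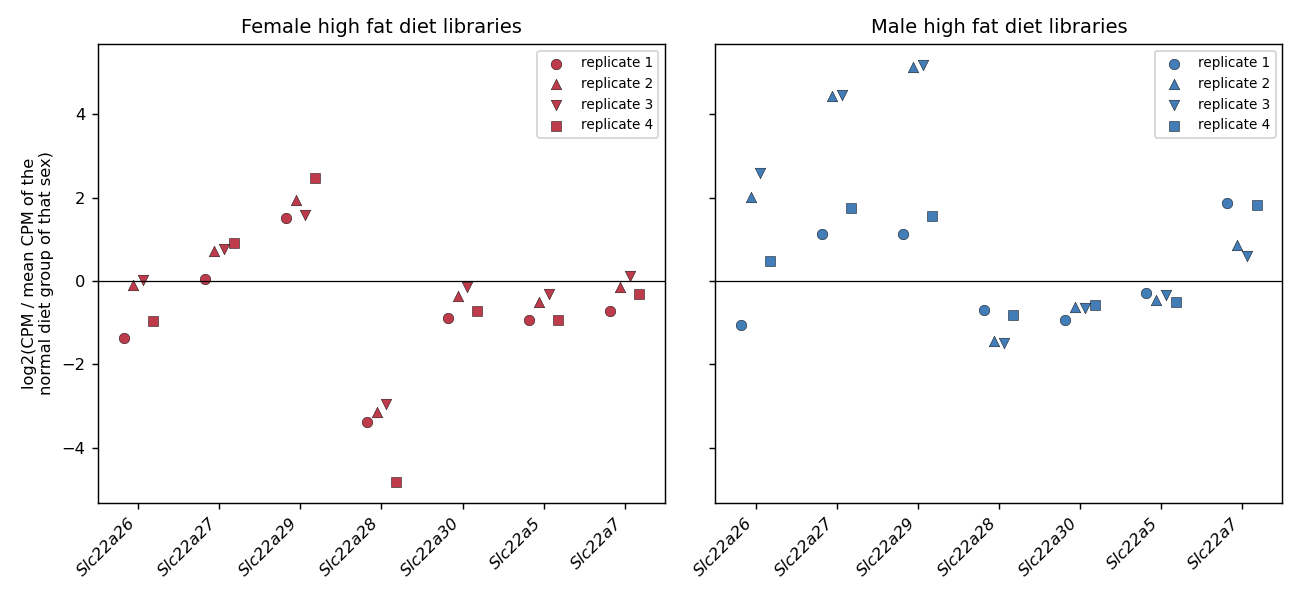
CPM of each transporter in each high fat library over the mean of the normal diet group of its sex, on a log2 scale where 0 is no difference. Male replicates 2 and 3 (triangles) lie near 4.4 for Slc22a27 and above 5 for Slc22a29, and replicates 1 and 4 lie lower.

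Across the 16 libraries, levels of the clustered genes were correlated in both directions, as a description only, since the points share the sex and diet groups and the libraries. Slc22a26, Slc22a27 and Slc22a29 were positively correlated with one another, with a Pearson r of log2 CPM of 0.96 for Slc22a26 and Slc22a27, 0.92 for Slc22a27 and Slc22a29 and 0.80 for Slc22a26 and Slc22a29. Slc22a28 and Slc22a30 were also positively correlated (0.74). Every pair of a gene of the first set with Slc22a28 or Slc22a30 had a negative r, from -0.91 to -0.86 with Slc22a28 and from -0.75 to -0.48 with Slc22a30. The tested genes whose levels were most like those of each transporter were then found by the same measure. They were Cyp2b13 (r = 0.99) and Cyp3a41a (0.99), both cytochrome P450 genes with close copies, for Slc22a26. For Slc22a27 they were Rtn4 (0.99), a reticulon of the endoplasmic reticulum, and Tcn2 (0.98), the vitamin B12 carrier transcobalamin. For Slc22a29 they were Slc17a4 (0.97), another organic anion transporter, and Vldlr (0.96), the very low density lipoprotein receptor. For Slc22a28 they were Wbp2 (0.96) and Ttc39c (0.95), and for Slc22a30 Ddx50 (0.94), an RNA helicase, and Kansl2 (0.94). For Slc22a5 they were Hsdl2 (0.87) and Mfsd14a (0.86), and for Slc22a7 B3galt1 (0.89) and Ginm1 (0.88).

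The rest of the family was tested alike. Of 20 further Slc22 genes listed by name whatever their values, 19 had a row and 7 passed the filter. With diet, 0 of the 7 were called in either sex by edgeR's quasi-likelihood test or by the DESeq2 Wald test, with 0 in females and 1 in males at an unadjusted p under 0.05. With 11.5% and 11.4% of all genes called, 0 of 7 is near the background. The change of Slc22a15 in males, 0.62 ± 0.23 on the log2 scale, had an adjusted p of 0.0911 in the edgeR test. For the comparison of the diet changes between the sexes, edgeR and DESeq2 called 0, and 1 had an unadjusted p under 0.05. On the high fat diet Slc22a3, the organic cation transporter OCT3, was lower in females by 0.85 ± 0.26 on the log2 scale (edgeR adjusted p = 0.0286), at 3.84 ± 1.66 CPM against 6.86 ± 0.325 CPM in males. It was the 1 of the 7 called there, where 20.4% of all genes were. That call was lost without male high fat replicate 3 or 4 and when only the 2 groups were fitted.

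Of 12 listed genes that make carnitine, pass acyl groups to and from it or are mitochondrial carriers, 10 were tested. With diet in females 2 were called, where 11.5% of all genes were, and between the sexes 2 were called on each diet, where 15.7% and 20.4% of all genes were, so these counts are near the background. In females on the high fat diet Crot, the peroxisomal carnitine octanoyltransferase, rose by 0.61 ± 0.15 on the log2 scale (edgeR adjusted p = 0.0142), from 698 ± 113 to 1062 ± 181 CPM. Slc25a20, the mitochondrial carnitine-acylcarnitine carrier, fell by 0.43 ± 0.13 (edgeR adjusted p = 0.0403), from 201 ± 15.9 to 149 ± 28.6 CPM. Only 1 of the 10, higher on the high fat diet, was called when any 1 of the 4 female normal libraries or of female high fat replicates 1 and 4 was left out. In males 0 of the 10 were called with diet by edgeR or DESeq2, and 1 had an unadjusted p under 0.05; without male high fat replicate 1 edgeR called 1. For the difference of the diet changes between the sexes, edgeR and DESeq2 called 0 of the 10, with 0 at an unadjusted p under 0.05. Between the sexes, Shmt1 was higher in females on the normal diet (0.65 ± 0.15, edgeR adjusted p = 0.00629) and on the high fat diet (0.50 ± 0.15, edgeR adjusted p = 0.0224). Aldh9a1, which acts in carnitine synthesis, was higher in females on the normal diet (0.43 ± 0.12, edgeR adjusted p = 0.0212). Cpt1a, the outer mitochondrial carnitine palmitoyltransferase of the liver, was lower in females on the high fat diet (-0.44 ± 0.14, edgeR adjusted p = 0.0317). On the normal diet 1 of the 10 was called between the sexes without male normal replicate 2 or 3. On the high fat diet 1 was called without any 1 of female high fat replicates 1, 2 and 3 and male high fat replicates 1 and 2, and 0 without female high fat replicate 4 or male high fat replicate 4.

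**Figure D5:**
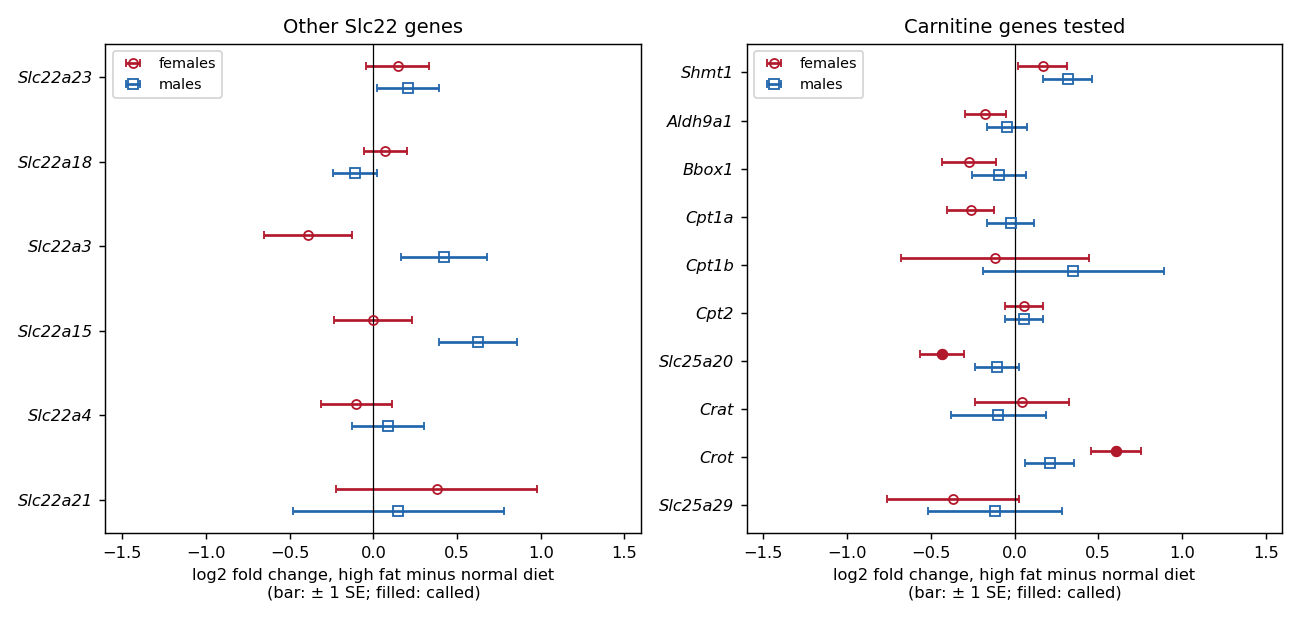
Log2 fold change with diet of 6 other Slc22 genes (left) and the 10 carnitine genes tested (right) in both sexes, with bars of 1 SE and filled points for called changes. Only Crot and Slc25a20 in females are filled.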

How the data were processed

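Liver poly(A) RNA of 16 libraries was sequenced on a NovaSeq instrument from a NEBNext Ultra kit, per the labels' protocols. STAR, RSEM and build GRCm39 are named in the submitters' processing notes, and versions and strand settings are not given in the sources used here. The authors deposited RSEM expected counts, of which 4.89% were not whole (tolerance 0.005), and TPM. Symbols matched 51487 genes, which held 98.97% of the counts. Transcript and promoter sequences came from GENCODE M21 and RefSeq tables of an older build, GRCm38.p6, and only the sequences shown carry its coordinates. Promoters were found for 6 of the 7 transporters.

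Expected counts were rounded, filtered by filterByExpr over the 4 groups and scaled by TMM in edgeR 4.0.16 (R 4.3.3). The quasi-likelihood test with robust settings was fitted to all 16 libraries with 1 mean per group. P-values were two-sided and adjusted over all 14781 tested genes by the Benjamini-Hochberg method. The SE of a log2 fold change was its absolute value over the root of the F statistic. CPM values came from the unrounded counts, and log2 CPM for correlations used a prior count of 2. The scripts were tested on simulated data.

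Alternatives were median-of-ratios scaling, DESeq2 1.42.0, limma 3.58.1 on log2(TPM + 1) and log2(TPM + 0.1), no filter, only the 2 groups compared, the replicate block, male high fat replicates 2 and 3 averaged, and each library left out. Leaving both of those libraries out was chosen after seeing the data. The transporters and gene lists were chosen with earlier results of these data known. The genes named are the 7 transporters, each listed gene called in a contrast, and the 2 genes of highest correlation with each transporter taking genes whose log2 CPM averaged 1 or more. Slc22a15 was named after its value was seen. Some genes that this rule or the lists hold are not reported here. Depth per library limits the precision of low levels: a floor of 3 counts is 0.0724 to 0.135 CPM before scaling, for counting error only.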

Additional observations from a re-analysis of the deposited data

Results flagged for a closer look

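Each transporter was looked at in each group of 4 for a library whose gap to the nearest of the others exceeded Dixon's 95% critical value as a share of the group's range. This flagged 2 of 28 groups, and chance flags about 1 in 20. Slc22a7 in female normal replicate 4 was at 16.4 CPM, where the other 3 libraries were between 12.3 and 12.9 CPM. Slc22a28 in male normal replicate 1 was at 28 CPM, where the other 3 were between 17.9 and 19.5 CPM. The second is the library without which the diet change of Slc22a28 in males was not called.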

How the results depend on the processing

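Of 735 log2 fold changes of the transporters and the cluster sum recomputed under the alternatives, 672 kept their direction and call, 17 gained a call, 40 lost one and 6 changed sign. Those that changed sign were Slc22a26 with diet in males at -0.23 and Slc22a29 in the comparison of diet changes at 0.67, both without male high fat replicates 2 and 3; Slc22a28 at 0.066 and Slc22a29 at 0.59 in that comparison on the log2(TPM + 1) scale; Slc22a7 between the sexes on the normal diet at 0.0046 without male normal replicate 3 (lowest of its leave-one-out values, -0.41); and Slc22a5 between the sexes on the high fat diet at -0.059 without female high fat replicate 3. None of the 6 was called under the main settings, and the cause was not tested.

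Leaving out both male high fat replicates 2 and 3 gave 5 transporters called with diet in females, 3 in males and 2 in the comparison of diet changes, and 1 carnitine gene with diet in males. The DESeq2 Wald test called 3 transporters in the comparison of diet changes. On both TPM scales 1 other Slc22 gene was called with diet in females, and on log2(TPM + 1) 2 were called between the sexes on the high fat diet, against 0 when only those 2 groups were fitted. Without the filter, and with only the 2 groups fitted, 1 carnitine gene was called with diet in females and 1 between the sexes on the high fat diet. Leaving out 1 library gave 1 to 3 transporters with diet in females, 4 to 5 in males, 0 to 1 in the comparison of diet changes and 4 to 5 between the sexes on either diet. The same gave 0 to 1 other Slc22 genes with diet in males and between the sexes on either diet. It gave 1 to 2 carnitine genes with diet in females, 0 to 1 in males, 1 to 2 between the sexes on the normal diet and 0 to 2 on the high fat diet.

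The TPM scale shifted the median of all genes by 0.15 on the log2 scale with diet in females, 0.11 in the comparison of diet changes and 0.10 between the sexes on the high fat diet, for TPM + 1. The numbers of genes called higher and lower were then 2644 and 282 with diet in females (848 and 852 in edgeR), 899 and 443 in males (891 and 793), 59 and 38 in the comparison of diet changes (39 and 61) and 2957 and 753 between the sexes on the high fat diet (1306 and 1716). DESeq2 called 337 genes in the comparison of diet changes, against 100 by edgeR.

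With the replicate block, Slc22a28 was called in the comparison of diet changes (-2.34), so 1 transporter was called there, and no other count of these lists moved. Libraries of the same number did not deviate together in every pair. The correlations were -0.16 to 0.14 for diet in females and -0.13 to 0.07 for diet in males. Between the sexes all were positive, at 0.05 to 0.16 on the normal diet and 0.02 to 0.18 on the high fat diet. Set against males, female replicates 1, 2 and 4 on the normal diet and 1 and 3 on the high fat diet correlated best with their own number. Between diets only female high fat replicate 1 did.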
